A study of Homo sapiens with 5 samples.

Results

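The nuclear genes of oxidative phosphorylation were taken by symbol from the RefSeq table of protein-coding genes on chromosomes 1 to 22 and X. They were the NDUFA, NDUFB, NDUFC, NDUFS and NDUFV genes, SDHA to SDHD, the UQCR, COX4 to COX8, ATP5F1, ATP5M and ATP5P genes, CYC1 and CYCS, without the NDUFAF assembly factors. The rule found 89 members among 19974 genes: 38 for complex I, 4 for complex II, 10 for complex III, 17 for complex IV, 19 for complex V and 1 for cytochrome c. Among them were 2 read-through genes, NDUFC2-KCTD14 and ATP5MF-PTCD1, which share their peaks with NDUFC2 and ATP5MF. The gene once named NDUFA4 carries the symbol COXFA4 in this table and so was not a member.

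The respiratory chain sits in the inner mitochondrial membrane. Complex I takes electrons from NADH and complex II from succinate, complex III passes them to cytochrome c, and complex IV hands them to oxygen. Complex V, the ATP synthase, uses the proton gradient so built to make ATP. All of complex II and most subunits of the others are encoded in the nucleus, and the remaining subunits in mitochondrial DNA. MYC is a transcription factor that binds the E-box, most strongly as CACGTG, and is known as an activator of nuclear genes for mitochondrial proteins. Mediator relays signals from transcription factors to RNA polymerase II, and MED17 and MED30 are subunits of its head.

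Occupancy was measured by chromatin immunoprecipitation and sequencing (ChIP-seq) in the established human pancreatic cancer line MIA PaCa-2. The 5 groups held 1 library each: MED17, MED30 and MYC in parental cells, and MYC in a derived line with a tet-on short hairpin against MED30 (shMED30), either without doxycycline or after 3 days of it. The series gives the doxycycline concentration as 0.5 mg/ml. Cells for the Mediator libraries were fixed with 2 mM DSG, a protein crosslinker, for 20 min and then with 1% formaldehyde for 10 min, while cells for MYC had the formaldehyde step alone. The labels do not say whether the shMED30 line was 1 clone, and no sample measures MED30 itself after induction, so the knockdown was not checked here. Since no group has a second library, nothing below was tested and counts are set beside those over all genes.

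MED17 gave 13172 peaks, MED30 gave 12040 and MYC 14331 in parental cells, while the shMED30 line gave 7158 MYC peaks before induction and 4621 after it. Pileup is the number of overlapping fragments. The background pileup, used as a measure of depth, was worked out from each list. It is the most common local background among that list's peaks, held by 2.71% to 7.95% of them. It was 1.60, 1.65 and 2.56 in the parental libraries, but 0.31 in the uninduced shMED30 line and 0.186 in the induced one, 0.6 times as much. The line's labelled origin was compared with marker genes: KRT8 and KRT18, epithelial keratins with a peak in common, had peaks of all 3 proteins, as did VIM. No marker of acinar (0 of 6), islet (0 of 4), immune (0 of 5) or endothelial cells (0 of 4) had one, and neither had the epithelial adhesion genes EPCAM and CDH1. KRT19, ZEB1 and the fibroblast collagen COL1A2 had both Mediator subunits without MYC. COL1A2 was 1 of 5 fibroblast markers, and the others (COL1A1, DCN, LUM and PDGFRA) had no peak.

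Promoter sequences of 5 members are shown. Their genes had the strongest MYC peaks with and without an E-box, or the strongest kept or lost with doxycycline. Each is the 250 bases before the annotated transcription start, 5′ to 3′ on the gene's strand, from RefSeq on GRCh38.p14, with CACGTG in capitals. They lie at chr19:5903791-5904040 (minus strand) for NDUFA11, chr19:8321376-8321625 (minus) for NDUFA7, chr1:111449214-111449463 (plus) for ATP5PB, chr19:1605463-1605712 (minus) for UQCR11 and chr2:206159445-206159694 (minus) for NDUFS1. The first 4 hold an E-box and NDUFS1 holds none. The UQCR11 peak lost with doxycycline, chr19:1604774-1605042, lies outside the stretch printed for it. So do the NDUFS1 peaks of the shMED30 line, which begin at chr2:206159955 without doxycycline and chr2:206159966 with it.
NDUFA11: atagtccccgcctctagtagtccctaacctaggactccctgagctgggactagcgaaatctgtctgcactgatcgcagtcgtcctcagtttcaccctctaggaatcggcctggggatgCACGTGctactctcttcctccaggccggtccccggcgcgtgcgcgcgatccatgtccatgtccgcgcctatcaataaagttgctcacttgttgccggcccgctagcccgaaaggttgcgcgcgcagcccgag
NDUFA7: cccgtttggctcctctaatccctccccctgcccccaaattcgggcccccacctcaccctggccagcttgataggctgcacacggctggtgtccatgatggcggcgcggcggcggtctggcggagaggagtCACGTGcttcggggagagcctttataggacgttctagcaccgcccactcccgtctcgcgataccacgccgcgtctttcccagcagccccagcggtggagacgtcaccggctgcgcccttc
ATP5PB: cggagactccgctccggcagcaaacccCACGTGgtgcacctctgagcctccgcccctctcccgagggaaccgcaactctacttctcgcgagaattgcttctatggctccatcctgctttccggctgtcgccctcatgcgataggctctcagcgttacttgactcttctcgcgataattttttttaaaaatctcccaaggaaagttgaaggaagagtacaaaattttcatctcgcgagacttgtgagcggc
UQCR11: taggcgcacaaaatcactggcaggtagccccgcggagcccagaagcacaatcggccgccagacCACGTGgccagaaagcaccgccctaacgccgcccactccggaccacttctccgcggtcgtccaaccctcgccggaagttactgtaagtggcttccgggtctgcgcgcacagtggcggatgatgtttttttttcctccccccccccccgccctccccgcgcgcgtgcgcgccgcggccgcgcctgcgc
NDUFS1: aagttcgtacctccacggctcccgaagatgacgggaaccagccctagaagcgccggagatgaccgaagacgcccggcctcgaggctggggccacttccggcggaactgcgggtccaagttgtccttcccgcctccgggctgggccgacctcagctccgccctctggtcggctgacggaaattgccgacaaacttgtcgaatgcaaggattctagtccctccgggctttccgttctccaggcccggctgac

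Each of MED17, MED30 and MYC, taken alone, had a peak at most members in parental cells. A peak was counted for a gene when it lay within 1 kb of either gene end. MED17 had a peak at 69 of the 89 members (77.5%), against 48% of all genes. MED30 had one at 61 (68.5%), against 41.8%. MYC had one at 55 (61.8%), against 39.1%. All 3 proteins were present at 44 members (49.4%), against 31.2% of genes. No peak of any of them was found at 16 of the 89, against 47.6% of genes. The backgrounds cover all protein-coding genes, silent ones included, and expression was not measured in these samples.

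The share of members bound stood above the background, while their folds were close to those of other bound genes. The fold of a peak is its deposited enrichment over the local background. The median over members of the strongest fold per gene was 5.28 for MED17 (range 3.59 to 9.55), beside 5.19 over all genes with a peak. For MED30 it was 5.10 (3.53 to 10.6) beside 5.05, and for MYC 4.36 (2.96 to 12.0) beside 4.68. When only peaks in the upper 50% of each list by fold were kept, MYC was left at 24 members (27.0%), against 21.9% of all genes, and all 3 proteins at 8 (8.99%), against 8.49%. MED17 kept 49.4% of the members, against 27.3%, and MED30 40.4%, against 24.2%.

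Among genes with MED17, the share with MYC was about the same for members as for all genes. Of the 69 members with MED17, 52 (75.4%) also had MYC, beside 75.1% of all genes with MED17. MED30 was missing at 11 of these 69, beside 18.7% of genes. Beyond the 44 members with all 3 proteins, 14 of the 89 had both Mediator subunits without MYC, beside 1562 of 19974 genes. Another 8 had MED17 and MYC without MED30. Over all 19974 genes, 7208 had MED17 and MYC, and 6241 of those had MED30 too. A further 2 members (ATP5F1A and COX6A1) had MED30 and MYC without MED17. With or without MYC, MED30 stood without MED17 at 3 members, beside 541 of the 19974 genes. Single proteins marked 5 members: MED17 at ATP5F1D, NDUFA8 and NDUFAB1, MED30 at COX6B1, and MYC at NDUFA12. No share over all genes is given for single proteins, so nothing is read from that count.

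**Figure D1:**
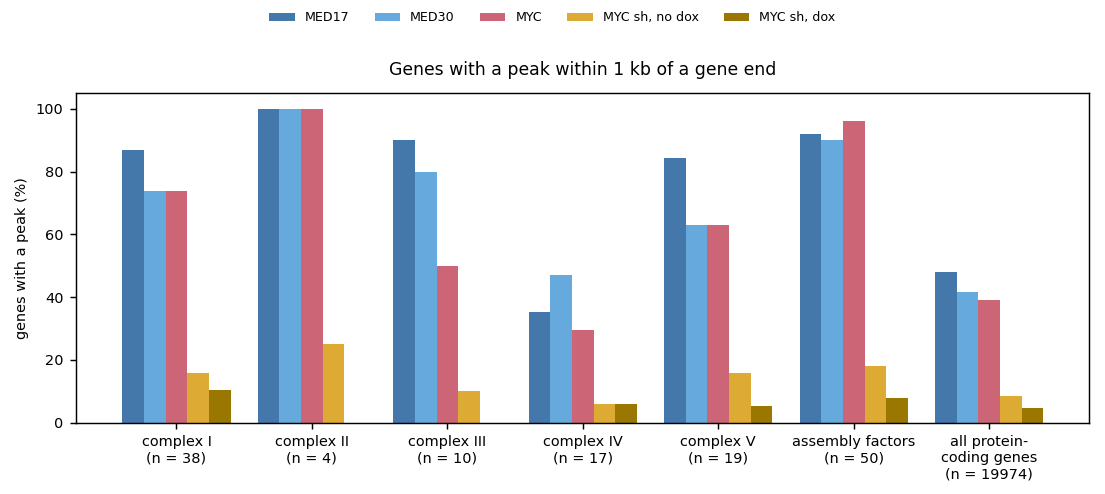
Share of genes with a peak within 1 kb of a gene end, in percent, for complexes I to V, 50 assembly factors and all protein-coding genes, with 1 bar per peak list and the number of genes under each group; each bar is 1 library, so there are no error bars, and "MYC sh" marks the shMED30 line without or with doxycycline. Parental MYC runs from 29.4% in complex IV through 73.7% in complex I to all 4 genes of complex II, against 39.1% of all genes.

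The complexes were not occupied alike. Complex I had MYC at 28 of 38 genes (73.7%), complex II at 4 of 4, complex III at 5 of 10, complex IV at 5 of 17 (29.4%) and complex V at 12 of 19 (63.2%). All 3 proteins together were found at 24 complex I genes, at 4 of complex II, at 4 of complex III, at 4 of complex IV and at 7 of complex V. Complex III thus had MED17 at 9 of 10 genes but MYC at 5. Among genes with MED17, MYC was at 27 of 33 in complex I (81.8%), at 5 of 9 in complex III (55.6%), at 4 of 6 in complex IV and at 11 of 16 in complex V (68.8%). Groups this small were not tested against each other.

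The core subunits of complex I that are encoded in the nucleus hold its flavin and iron-sulfur clusters, and the other nuclear genes of the complex encode accessory subunits. Of the accessory genes, 22 of 31 had MYC. NDUFS1, the largest iron-sulfur subunit, had the strongest MYC peak of all members, at a fold of 12.0, over chr2:206159613-206160501, which begins in the promoter printed above and runs on upstream. Its MED17 and MED30 folds were 4.83 and 4.80, below the members' medians of 5.28 and 5.10. NDUFV2, an electron-input subunit, had folds of 5.32 for MED17, 7.51 for MED30 and 5.70 for MYC. NDUFV1, its flavin-bearing partner, had 4.14, 4.33 and 4.38, and NDUFS3 had 4.87, 6.02 and 4.05. NDUFS7 and NDUFS8, which carry iron-sulfur clusters near the quinone site, lacked MED30: MED17 and MYC folds were 4.35 and 5.73 at NDUFS7, and 6.12 and 3.95 at NDUFS8. The nearest MED30 peak to NDUFS8 lay 1779 bp from its end.

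The MYC peaks of the accessory subunits also ranged widely in strength. NDUFA11, which stabilises the membrane arm, had a fold of 8.81 for MYC and 9.55 for MED17, the highest MED17 value of the members, but 3.53 for MED30, the lowest MED30 value. NDUFB2 had 6.95, 7.05 and 8.80 for MED17, MED30 and MYC. NDUFA7 had 5.51, 8.86 and 8.45, and NDUFC1 had 4.90, 6.01 and 8.68. At the low end, NDUFB4 had a MYC fold of 2.96 and NDUFB5 one of 3.03, with MED17 at 5.30 and 6.23. A weak MYC peak thus stood beside MED17 peaks above the members' median of 5.28. The remaining accessory genes with all 3 proteins had MYC folds from 3.76 at NDUFB1 to 5.23 at NDUFB9.

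Accessory genes without MYC fell into those with and those without Mediator. NDUFB10 (3.93 for MED17 and 3.94 for MED30), NDUFB3 (5.22 and 4.25), NDUFS4 (6.45 and 5.10) and NDUFB6 (5.06 and 4.90) had both subunits. At NDUFB6 they were at opposite ends of the gene: the MED30 summit lay 27 bp from its start, and the MED17 summit 21538 bp from it and 613 bp from the start of SMIM27. NDUFA8 (7.05) and NDUFAB1 (4.95), the acyl carrier protein, had MED17 alone. NDUFA12 had a MYC peak of 3.90 alone, and NDUFS6 had MED17 (4.61) and MYC (3.88), with its nearest MED30 peak 1107 bp away. NDUFA3, NDUFA5 and NDUFA6 had no peak of any protein. Their nearest parental peaks were 5829 bp away (MED30, NDUFA3), 20036 bp away (MED17, NDUFA5) and 14142 bp away (MED17, NDUFA6).

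Complex II, the succinate dehydrogenase that also serves the tricarboxylic acid cycle, was bound at every gene, with mostly weak MYC peaks. SDHA, the flavoprotein, had folds of 5.96, 4.51 and 3.40 for MED17, MED30 and MYC. SDHB, the iron-sulfur subunit, had 5.98, 6.67 and 3.55. The membrane anchor SDHC had 5.15, 5.96 and 3.79, and the other anchor, SDHD, 4.65, 5.20 and 6.15. SDHD was the gene of the complex whose MYC fold stood above the members' median of 4.36.

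In complex III, the catalytic subunits carried strong MED17 peaks and modest MYC peaks. UQCRFS1, the Rieske iron-sulfur protein, had 8.43 for MED17, 4.24 for MED30 and 4.01 for MYC. CYC1, cytochrome c1, had 8.01 for MED17 and 3.68 for MYC, with no MED30 peak. UQCR11 had 4.93, 3.82 and 4.62, UQCRH 6.13, 5.01 and 4.23, and UQCRQ 5.65, 4.13 and 3.58. The core proteins UQCRC1 and UQCRC2, which hold no redox group, had no MYC peak. Their MED17 and MED30 folds were 7.42 and 5.14 at UQCRC1, and 5.54 and 6.54 at UQCRC2. UQCRB (5.36 and 6.16) and UQCR10 (4.79 and 4.44) also had both Mediator subunits without MYC. CYCS, the mobile carrier between complexes III and IV, had the highest MED30 fold of the members, 10.6, with 8.14 for MED17 and 8.95 for MYC at chr7:25125001-25125701.

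As counted here, complex IV had the lowest share for each of the 3 proteins in parental cells. With lists of equal length, MYC was at 1 of its 17 genes and at 0 of 10 in complex III. Several of its subunits exist as pairs of a widely expressed form and one restricted to heart and skeletal muscle, lung or testis. The 6 restricted COX genes (COX4I2, COX6A2, COX6B2, COX7A1, COX7B2 and COX8C), and UQCRHL, the restricted partner of UQCRH in complex III, had no peak in any list, 0 of 7, beside the 47.6% of all genes that had none in parental cells. Of the 7 widely expressed partners, 6 had a peak of at least 1 protein: 4 had MED17, 6 had MED30, 4 had MYC and 3 had all of them. COX7A2 was the partner without one, its nearest peak (MED17) being 5482 bp off. Without the restricted genes, complex IV had MED17 at 6 of 11 genes, MED30 at 8 and MYC at 5, so its MED30 share was then above the 63.2% of complex V. All members without them had MED17 at 69 of 82 (84.1%), MED30 at 61 (74.4%) and MYC at 55 (67.1%).

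COX5A, a subunit on the matrix side, had the strongest MYC peak of complex IV, 6.31, with 6.03 for MED17 and 5.99 for MED30. The peak, chr15:74937825-74938437, lay at no other gene. COX4I1, the widely used form of the largest nuclear subunit, had 4.56, 5.91 and 3.40. COX7C had 6.72, 4.25 and 4.31, and COX8A 6.05, 4.73 and 3.88. COX5B (7.18 and 7.24) and COX7B (4.89 and 5.52) had both Mediator subunits without MYC, so COX5B, with the strongest Mediator pair of the complex, had no MYC peak. COX6A1 had MED30 (4.53) and MYC (4.33), and COX6B1 had MED30 alone (4.37). COX6C had no peak, the nearest lying 256680 bp away.

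In complex V, none of the 5 genes of the catalytic F1 head had all 3 proteins within 1 kb, beside 36.8% of the whole complex and 31.2% of all genes. ATP5F1B, the catalytic beta subunit, had MED17 (5.31) and MED30 (6.77) without MYC. ATP5F1A, the alpha subunit, had MED30 (4.17) and MYC (3.42) without MED17. The gamma and epsilon subunits, ATP5F1C and ATP5F1E, had MED17 (6.27 and 7.37) and MYC (4.24 and 5.23) without MED30, and ATP5F1D had MED17 alone (3.59). Within 5 kb, ATP5F1D had all 3 proteins.

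Of the 4 genes of the peripheral stalk, which holds the head still, ATP5PF had all 3 proteins (6.07, 4.37 and 4.94). ATP5PB, the b subunit, had MED17 (5.19) and MYC (7.29), the highest MYC fold of complex V. ATP5PD (5.28 and 4.87) and ATP5PO (5.10 and 5.37), the latter being the subunit OSCP, had both Mediator subunits without MYC. In the membrane sector, 6 of 10 genes had all 3 proteins. ATP5MC1 and ATP5MC3, which encode the same c-ring protein, had MYC folds of 6.69 and 3.44, with MED17 at 4.92 and 6.90 and MED30 at 5.17 and 3.76. ATP5MK had 5.22, 3.68 and 6.07, ATP5ME 5.89, 4.91 and 5.53, and ATP5MF 4.60, 6.48 and 4.36. ATP5MJ had MED17 (5.45) and MYC (4.97), and ATP5MG had MED17 (4.62) and MED30 (3.94). ATP5MGL, a gene like ATP5MG, had no peak.

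For 2 members without a peak the absence came from the gene ends used. The annotated starts of ATP5MC2, the remaining c-ring gene, and of COX7A2L, which helps complexes III and IV associate, lie 5340 bp and 7740 bp inside the gene's outer end. At the start itself, ATP5MC2 had folds of 5.34 for MED17, 4.96 for MED30, 6.73 for MYC and 6.47 for MYC with doxycycline. COX7A2L had 5.40, 4.93, 4.27 and 4.22 in the same order. Neither had a peak in the shMED30 line without doxycycline. With the start counted beside both ends, MYC was at 57 members (64.0%), against 40.5% of all genes.

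**Figure D2:**
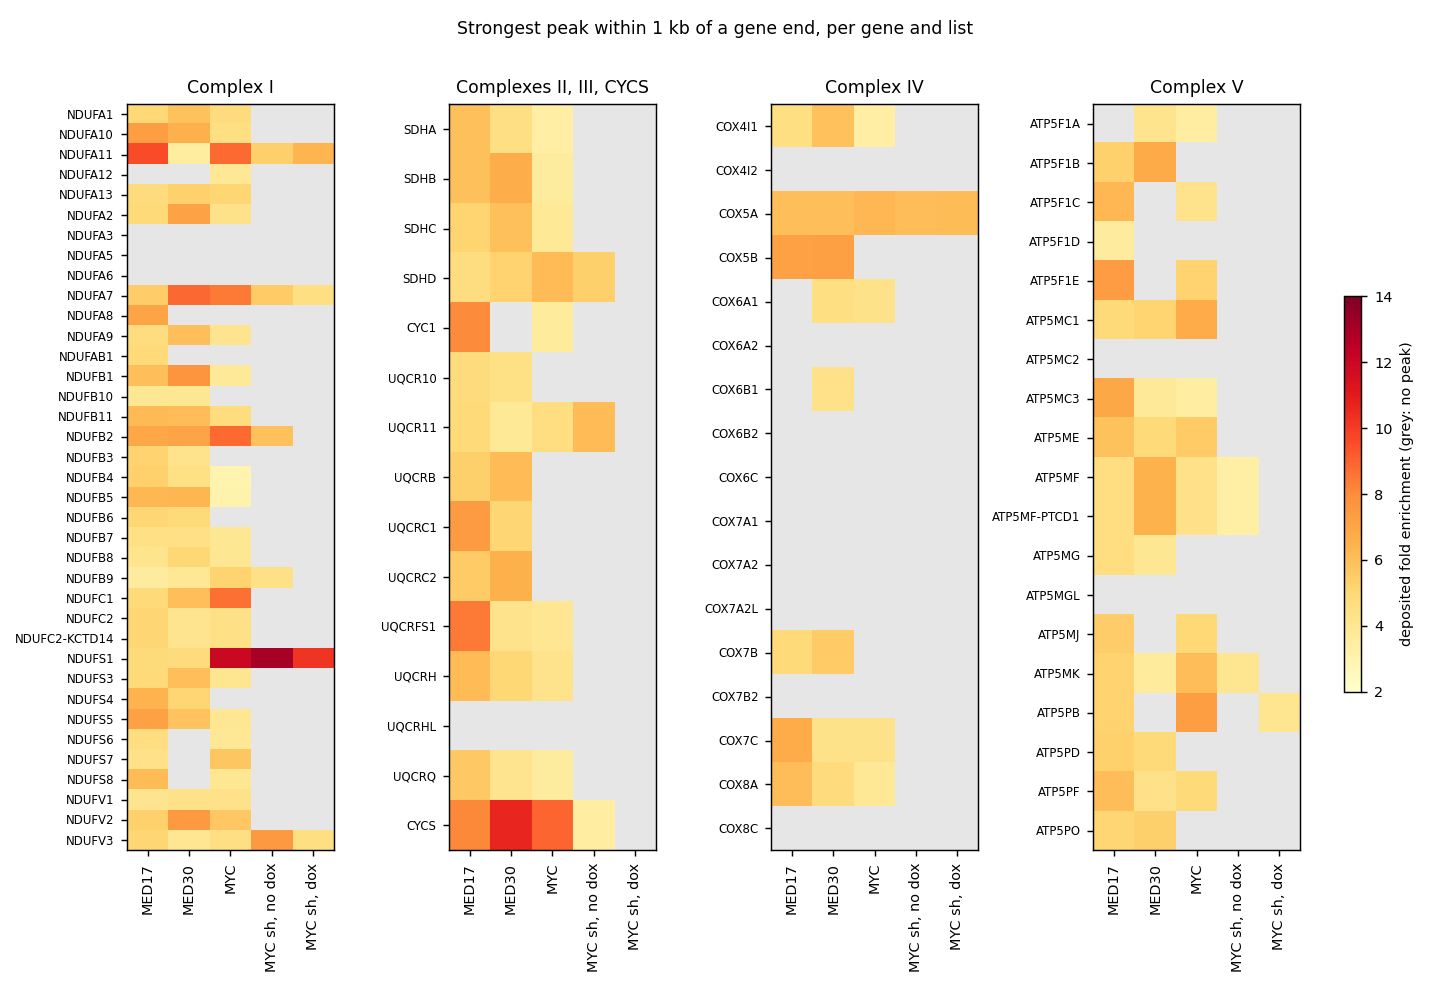
Deposited fold enrichment (colour) of the strongest peak within 1 kb of each member, 1 row per gene shown, grouped by complex and 1 column per peak list, with grey for no peak; "MYC sh" marks the shMED30 line without or with doxycycline, and folds are not comparable between columns, since depth and fixation differ. The 7 tissue-restricted genes are grey throughout, and both columns of the shMED30 line are mostly grey, with 13 and 6 coloured cells.

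Many members lie close to another gene. An end of another protein-coding gene lay within 1 kb of either end of 42 of the 89 members (47.2%), against 28.6% of all genes. Starts and far ends counted alike, so this is not a count of shared promoters. NDUFC2 and ATP5MF counted as neighbours of their own read-through genes, and the reverse, here and below. At 33 of the 55 members with MYC (60%), the strongest peak also lay within 1 kb of an end of another gene. The share was 34.5% over all genes with a MYC peak. The corresponding shares were 50.7% against 33.7% for MED17 and 49.2% against 35.1% for MED30. A peak in such a place cannot be assigned to 1 gene alone. Both starts were known for 26 of these 33 members, and at 11 the MYC summit was nearer the other gene's start.

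The members stood above other genes both with and without such a neighbour. With one, MYC was at 31 of 42 members (73.8%), against 58.2% of all genes with one. Without one, it was at 24 of 47 (51.1%), against 31.5%. MED17 was at 85.7% against 69.1% with a neighbour, and at 70.2% against 39.6% without. In complex V, 9 of 10 genes with a neighbour had MYC, and 3 of 9 without. In complex I the counts were 16 of 22 and 12 of 16. When all peaks near another gene were left out, MYC was at 22 of 89 members (24.7%), below the 26.0% of all genes, while MED17 (38.2% against 32.4%) and MED30 (34.8% against 27.5%) stayed above. That count drops every peak near an end of another gene, whether a start or a far end. Members with MYC shared their strongest MYC peak more often than all genes with MYC did, 60% against 34.5%. Whether this accounts for the lower MYC share was not tested.

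**Figure D3:**
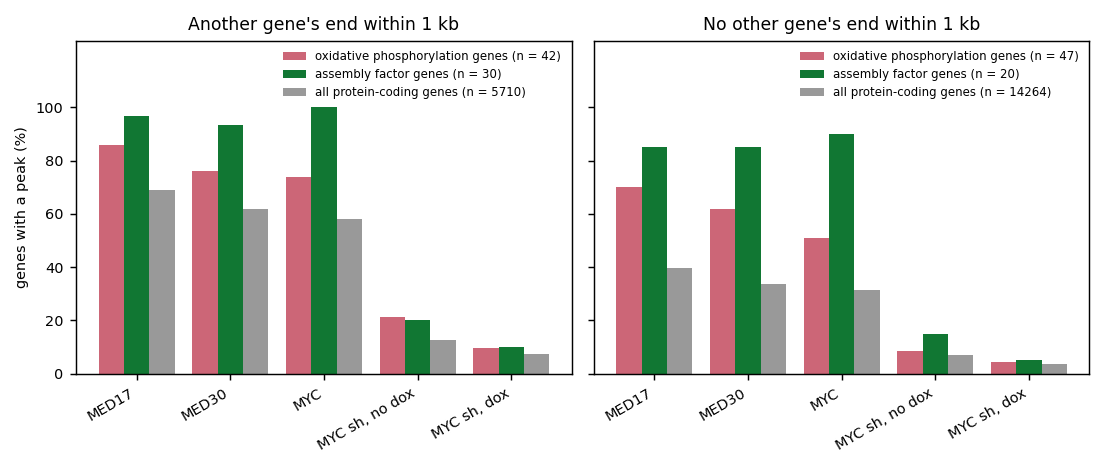
Share of genes with a peak, in percent, for members, assembly factors and all protein-coding genes in each of the 5 lists, with (left) and without (right) an end of another gene within 1 kb; each bar is 1 library, so there are no error bars, and "MYC sh" marks the shMED30 line. For parental MYC, members stand at 73.8% against 58.2% on the left and at 51.1% against 31.5% on the right.

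Single peaks show what this means. The NDUFS1 peak is shared with EEF1B2, a translation elongation factor gene, and its summit was 668 bp from the NDUFS1 start and 503 bp from that of EEF1B2. At NDUFC1 the MYC summit was 43 bp from the start of NAA15 and 1003 bp from its own. At ATP5PB the summit was 30 bp from the start of WDR77 and 238 bp from its own, and at ATP5MK it was 41 bp from PDCD11 and 192 bp from its own. NDUFA11 was the opposite case, with its summit 139 bp from its own start and 943 bp from that of VMAC. At NDUFA7, the strongest MYC peak lay at the far end of the gene, 317 bp from the start of CD320 and 13334 bp from its own. The MYC peak at the NDUFA7 start had a fold of 7.29. Another gene, RPS28, also starts there. The MED30 summit at NDUFA7 was 49 bp from the RPS28 start and 170 bp from its own. The MYC peak at this start therefore cannot be assigned to NDUFA7 alone either.

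The 3 proteins mostly occupied the same stretch. Of 55 distinct MYC peaks at members, 51 (92.7%) overlapped a MED17 peak by at least 1 bp and 44 (80%) a MED30 peak, against 86.5% and 77.7% of the MYC peaks at all genes. Of 60 MED30 peaks, 54 (90%) overlapped MED17, against 89.9%. Summits differed in position. Measured from the annotated start, with positions before it negative, the median summit lay at 182 bp for MED17 (58 members), at -27 bp for MED30 (53 members) and at -46.5 bp for MYC (48 members). Within 250 bp of the start lay 44.8% of the MED17 summits (43.8% over all genes), 83.0% of the MED30 summits (70.3%) and 64.6% of the MYC summits (60.6%). MED17 summits thus lay near the start about as often in members as in all genes, and MED30 summits did so most often of the 3 proteins.

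**Figure D4:**
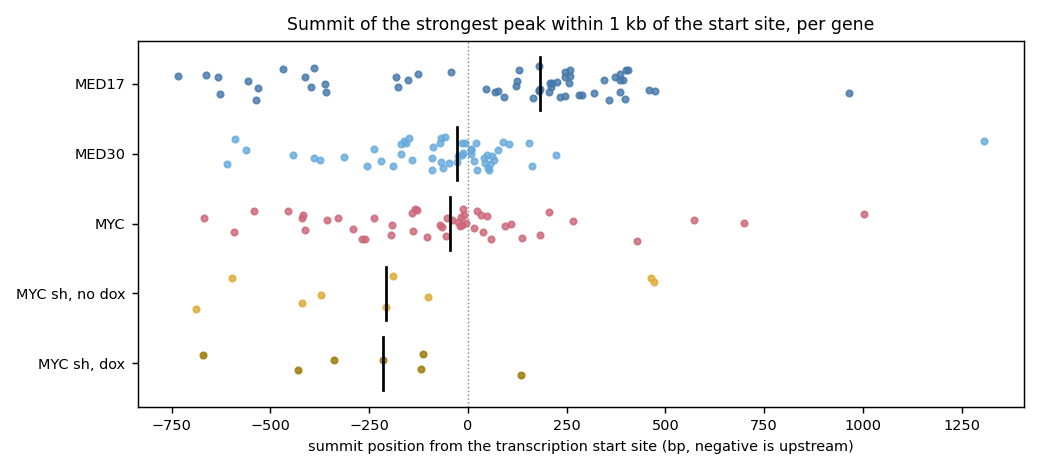
Position of the summit of the strongest peak within 1 kb of the annotated start, in bp along the gene's strand with upstream negative; each point is 1 member, spread vertically at random within its list, the black bar is the median, and "MYC sh" marks the shMED30 line. MED17 summits lie on both sides of the start with a median of 182 bp, while MED30 and MYC summits gather closer to it, with medians of -27 and -46.5 bp.

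Few member promoters held CACGTG. Promoter entries, 250 bases before to 50 after the start, matched 71 of the 89 members and 15812 genes in all. CACGTG, which reads the same on both strands, was in 7 of the 71 (9.86%), against 8.87% of all promoters. By complex these were 3 of 33 in complex I, 1 of 7 in complex III, 3 of 13 in complex V, and none of 3 in complex II or of 14 in complex IV. All 7 had a parental MYC peak at the start, 7 of the 48 so bound (14.6%, against 12.8% over all genes), and none of the 23 unbound did (6.18% over all genes). Their median MYC fold was 6.69, against 4.32 for the 39 members without CACGTG that had a MYC peak within 1 kb of a gene end.

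In 4 of these promoters the E-box lay almost under the summit. The distance from E-box to MYC summit was 8 bp at ATP5MC1, 10 bp at NDUFA11, 18 bp at ATP5PB and 18 bp at NDUFA7. It was 108 bp at ATP5ME, 158 bp at NDUFS7 and 756 bp at UQCR11. Over all bound promoters with an E-box, 238 of 822 (29%) had one within 25 bp of the summit, with a median distance of 73.5 bp. In the sequences printed above, the capitals begin at position -132 from the start in NDUFA11, -120 in NDUFA7, -223 in ATP5PB and -187 in UQCR11. NDUFS1, with the highest MYC fold, had no CACGTG in this window, and its summit lay outside the window, 668 bp from the start.

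Of the motifs of other factors known at respiratory genes, NRF1, ETS and YY1 letters were more frequent than over all promoters. The GC box was about as frequent. The NRF1 letters GCATGCGC were in 14 of 71 promoters (19.7%, against 4.26% of all), the ETS letters CCGGAAGT in 10 (14.1%, against 6.2%) and the YY1 letters AAGATGGCG in 8 (11.3%, against 2.74%). The GC box GGGCGG, a motif of SP factors, was in 42 (59.2%, against 58.5%). Both strands were searched, and none of the 5 motifs contains another. Among promoters with MYC at the start, NRF1 letters were in 11 of 48 (22.9%), against 6.9% of all such promoters. ETS letters were then in 8 (16.7%, against 10.8%) and YY1 letters in 5 (10.4%, against 5.2%). The GC box was in 33 (68.8%), below the 76.1% of all such promoters. These are letter matches only, and binding of those factors was not measured here.

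**Figure D5:**
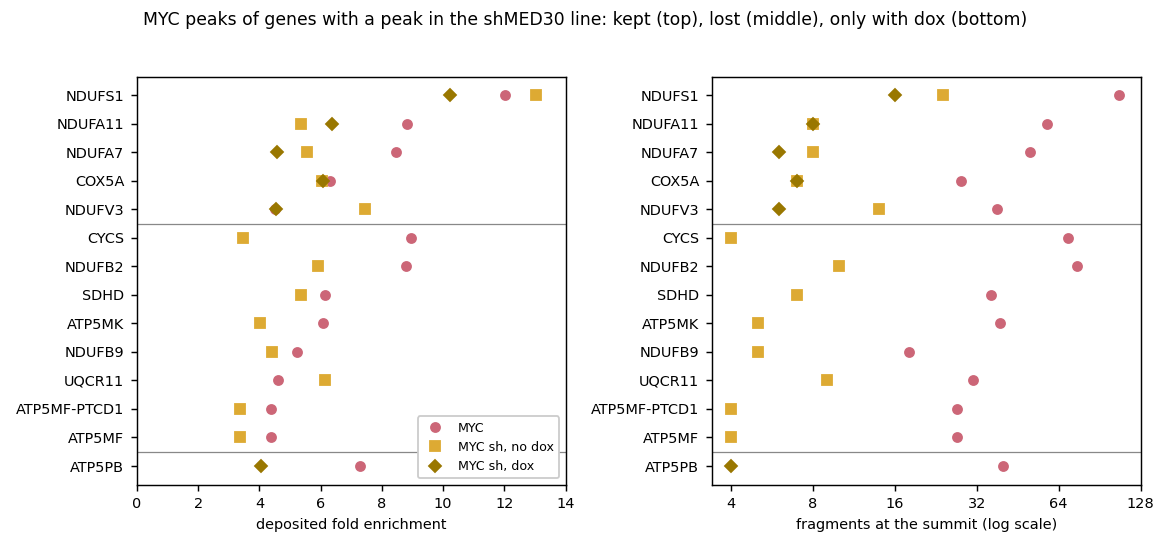
Deposited fold enrichment (left) and fragments at the summit on a log axis (right) of the strongest MYC peak at the 14 members found in either list of the shMED30 line, for parental cells (circles), that line without doxycycline (squares) and with it (diamonds); no symbol means no peak, and symbols can overlap, as at NDUFV3. Kept members lie above the upper line, lost ones between the lines, and ATP5PB, found with doxycycline only, at the bottom; parental summits hold 18 to 107 fragments, against 4 to 24 without doxycycline.

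In the shMED30 line few members had a MYC peak. Without doxycycline there were 13 of 89 (14.6%), against 8.57% of all genes, and with it 6 (6.74%), against 4.71%. All 13 were bound in parental cells, 13 of 55 (23.6%), against 20.9% of all genes with parental MYC. With doxycycline, 5 of the 13 had a peak overlapping the earlier one, against 33.4% of all genes with a peak without doxycycline. The library with doxycycline had 0.6 times the background pileup of the one without, so depth and doxycycline cannot be told apart. Against parental cells, depth, line and the deposited q limit all differed.

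The 5 members that kept a peak were 4 of complex I and COX5A. NDUFS1 had folds of 13.0 without and 10.2 with doxycycline, from 24 and 16 fragments at the summit, against 107 in parental cells. NDUFA11 had 5.34 and 6.36, from 8 fragments each. NDUFA7 had 5.55 and 4.57 from 8 and 6 fragments, at the end of the gene near CD320, and no peak at its own start in this line. NDUFV3 had 7.44 and 4.54 from 14 and 6 fragments, and COX5A 6.06 and 6.08 from 7 each. COX5A was the one kept member whose peak lay at no other gene. NDUFA11 and NDUFV3 no longer counted as kept when peaks had to overlap by 50% of both lengths.

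The 8 members without a peak after doxycycline were CYCS and genes of complexes I, II, III and V. CYCS had a fold of 3.48 without doxycycline, NDUFB2 5.93, NDUFB9 4.40, SDHD 5.36, UQCR11 6.13, ATP5MK 4.02, and ATP5MF 3.35, the last shared with its read-through gene. In fragments at the summit these were 4 at CYCS, 10 at NDUFB2, 5 at NDUFB9, 7 at SDHD, 9 at UQCR11, 5 at ATP5MK and 4 at ATP5MF. Peaks that were lost had 4 to 10 fragments and peaks that were kept 7 to 24, so the ranges overlap, and all peaks with 4 or 5 fragments were lost. At a q of 0.01 or lower, the peaks of CYCS, ATP5MK, ATP5MF and its read-through gene left the list without doxycycline, and 5 of 9 members were kept. ATP5PB had a peak with doxycycline (4.04, 4 fragments) and none without, the only such member by its gene ends.

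Lists of genes that build or regulate the chain had higher shares bound than the chain itself, without a test of the difference. Of 50 assembly factors for the complexes, 46 had MED17, 45 MED30 and 48 MYC, and 41 had all 3. Over all genes these shares were 48%, 41.8%, 39.1% and 31.2%. Members without the 7 tissue-restricted genes had MED17 at 84.1%, MED30 at 74.4% and MYC at 67.1%. TACO1 and ATP5IF1 lacked MYC, and SDHAF1 and TMEM70 had MYC (4.33 and 4.17) without Mediator. Their median MYC fold was 4.96, above the members' 4.36. COA7, a factor for complex IV, had the highest, 9.94, with 8.67 without and 7.37 with doxycycline. Among assembly factors with MED17, MYC was at 44 of 46 (95.7%), against 52 of 69 members and 75.1% of all genes. A gene neighbour lay within 1 kb of 60% of assembly factors, against 47.2% of members. With one, MYC was at 30 of 30 assembly factors, against 58.2% of all genes with one. Without one, it was at 18 of 20, against 31.5%.

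Of 17 genes for mitochondrial transcription and its regulators, 16 had MED17, 13 MED30 and 14 MYC. The shares over all genes were 48%, 41.8% and 39.1%. GABPA was counted here by the same peaks of all 3 proteins as the member ATP5PF. The strongest MYC peaks were at GABPB1, a subunit of the ETS factor GABP (11.3 in parental cells, 12.7 without and 9.31 with doxycycline), and at the helicase gene TWNK (10.3). NRF1 itself had 6.01, 6.21 and 6.41 in the 3 MYC lists, and TFAM, which packages mitochondrial DNA, 6.29 in parental cells. PPARGC1A had no peak. Of 17 tricarboxylic acid cycle genes, 16 had MED17, 13 MED30 and 14 MYC, with MDH2 the strongest (9.18, 10.2 and 7.10 in the 3 MYC lists). IDH2, DLST and SUCLA2 had no MYC peak.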

How the data were processed

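ChIP-seq peak lists of 5 libraries, 1 per group, were used, each in narrowPeak layout and called per library. Tools in the submitters' processing notes are MACS2, Bowtie2, Trim Galore and deepTools, with hg38 as build; the sources used here give neither versions nor the use of an input control. The deposited fold is a ratio of summit pileup to local background, significance is deposited as −log10 of the p-value and of the q-value, and the score column, as deposited, equals −log10 q times 10. All are the authors' own values and were used within a list only. The largest q was 0.0489 to 0.0499 in the parental lists and 0.0993 and 0.0979 in the shMED30 lists.

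Members and gene lists were chosen with earlier results of these data known. Gene ends and promoters came from RefSeq tables for GRCh38.p14. A gene was counted when a peak lay within 1 kb of either end; its fold is that of its strongest such peak. Peaks overlapped when they shared 1 bp. Summit pileup and background were solved from fold and p, assuming a Poisson tail and 1 added to both, within 0.002 log10 units for 99.6% to 99.9% of peaks. Read totals were not used here, so depth is known only through this background. Members named with values were the highest and lowest MYC folds per complex, those lacking a protein, those bound in the shMED30 line, catalytic subunits and paralog pairs. Counting was checked on simulated data. Alternatives were 8 planned ways of counting, 2 of overlap and 1 added after the data were seen, the start beside both ends. Python 3.11.15, numpy 2.4.6, pandas 2.3.3, scipy 1.17.1 and matplotlib 3.10.9 were used. No genome sequence was used. The values of 1 member are not reported here, though counts include it.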

Additional observations from a re-analysis of the deposited data

How the results depend on the processing

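No paired analysis was possible because each group held 1 library and no result came from a test. Under other settings, 92 counts stayed within 1.5 times the reported count and 36 did not. Counts depended mostly on how many peaks were admitted. With peaks in the upper 50% by fold, MED17 was at 44 members, MED30 at 36, MYC at 24, all 3 proteins at 8 and MYC without doxycycline at 8. MYC was then at 13 genes of complex I, 1 each of complexes II, III and IV, 7 of complex V and 30 assembly factors. With every list reduced to 4621 peaks by p, these counts were 34, 30, 16, 6 and 8, then 8 in complex I, 1 in II, 0 in III, 1 in IV, 5 in V and 22 assembly factors. At that length MYC was at 18.0% of members, against 14.2% of all genes.

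With peaks at no other gene, MED17 was at 34 members, MED30 at 31, MYC at 22, all 3 at 17, MYC without doxycycline at 3, with it at 1, and 1 was kept. MYC was then at 10 genes of complex I, 2 of II, 3 of III, 3 of V and 22 assembly factors. Members kept with doxycycline numbered 8 within 5 kb and 3 with reciprocal overlap of 50%. The other settings (500 bp, transcription start only, q of 0.01, summit within 1 kb, and the start beside both ends, chosen after seeing the data) moved no count by over 1.5 times. The tissue-restricted genes had 0 peaks under every setting run. The planned move of NDUFA4 to complex IV was not run, since no member has that symbol. Counts in the shMED30 line rest on summits of 4 to 24 fragments, and the part of depth in the missing peaks was not tested.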
